A study of Mus musculus with 24 samples.

Results

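Untreated MIN6 cells that overexpress miR-146a-5p (OE) were compared with untreated control cells that carry a scrambled sequence (Scr). The comparison used the 4 OE and the 4 Scr libraries grown without cytokines, 8 of the 24 mRNA sequencing libraries of the series. MIN6 is a mouse insulinoma line that makes and secretes insulin. Both lines were made with lentiviral vectors, selected with puromycin and expanded from single picked clones. The OE vector was shMIMIC with a TurboRFP reporter, and the Scr vector was miRZip-000 with a copGFP reporter. Effects of miR-146a-5p, of the vector and of the clone therefore cannot be told apart here. The remaining 16 libraries were a line with miR-146a-5p inhibited (ZIP), untreated, and the 3 lines treated with cytokines (Cy). That mixture held 5 ng/ml IL1b, 100 ng/ml IFNg and 10 ng/ml TNFa and was applied for 24 h. The labels do not say that libraries of a group came from separate cultures, so p-values measure the spread between these libraries.

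MicroRNAs are short RNAs that guide Argonaute proteins to messages, mostly through pairing of the seed, bases 2 to 8, with sites in 3' untranslated regions. A paired message is usually translated less and degraded faster. miR-146a-5p is transcribed in response to NF-kB and is best known as a brake on Toll-like and IL-1 receptor signalling through the adaptors Irak1 and Traf6. In beta cells it is known as a microRNA induced by inflammatory cytokines. The question of the comparison was which messages differ in cells with more miR-146a-5p before any cytokine is given.

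The mature sequences of the miR-146 family are shown because they define the sites that were counted below. Capitals mark the seed, which both members share. The sequences come from RefSeq (GRCm38.p6), with miR-146a-5p at chr11:43374435-43374456 on the minus strand and miR-146b-5p at chr19:46342790-46342811 on the plus strand. The microRNA level itself was not analysed here.
mmu-miR-146a-5p: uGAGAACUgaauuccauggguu
mmu-miR-146b-5p: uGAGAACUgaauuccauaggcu

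Sites for this seed are shown for the adaptors Irak1 and Traf6 and for Notch1, Sort1 and Mapt, whose values follow. Notch1, Sort1 and Mapt were all lower in OE. Rest, Acvr2b and Tbp also have a site, were not called by the rule below and are not shown. The display therefore does not represent genes with a site. Each stretch is 22 bases of the 3' untranslated region on the strand of the gene, from GENCODE M21 on GRCm38, and capitals mark AGTTCTC, the reverse complement of the seed. Irak1 holds 2 such sites and Traf6 holds 4. In each of the 9 stretches the next base is A, which makes an 8-base site.
Irak1, chrX:74015392-74015413: actcagaggtcaaAGTTCTCat
Irak1, chrX:74015376-74015397: tctcatgcttggaAGTTCTCat
Traf6, chr2:101697946-101697967: cgctctggtgttgAGTTCTCat
Traf6, chr2:101698010-101698031: cctggaaggcttaAGTTCTCaa
Traf6, chr2:101698822-101698843: tactttggagtctAGTTCTCag
Traf6, chr2:101701346-101701367: actttgctactgcAGTTCTCaa
Notch1, chr2:26459262-26459283: aagaaaataaactAGTTCTCag
Sort1, chr3:108360969-108360990: gaattcctagtgcAGTTCTCat
Mapt, chr11:104329106-104329127: agctgctttactgAGTTCTCaa

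The OE libraries held 29879853 to 37168232 reads assigned to genes and the Scr libraries 31553781 to 36406136. Values are given as CPM, gene counts relative to the scaled library total. CPM is not divided by gene length, so levels are compared between lines and not between genes. Beta cell markers summed to 18960 to 25260 CPM in the Scr libraries and 40320 to 43990 CPM in the OE libraries, as the labelled cell type has them. Across 9559 genes with at least 10 CPM, the median coefficient of variation was 6.49% in Scr and 5.64% in OE. Fibroblast markers summed to 19.58 CPM in Scr replicate 1, against 0.991 to 4.17 CPM in the other Scr libraries and at most 4.11 CPM in OE. In bulk RNA, fewer cells of a type and less RNA per cell cannot be told apart.

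A gene was called when its fold change was at least 1.5 and its adjusted p (edgeR quasi-likelihood test, Benjamini-Hochberg over all genes) was under 0.05. Of 17696 genes tested, 4220 were called, which is 23.8%. Higher in OE were 1844 genes (10.4%) and lower were 2376 (13.4%). The 4 OE and 4 Scr values did not overlap for 8221 genes (46.5%), 3868 of them among the called genes. Changes of at least 4-fold numbered 770 higher and 828 lower, and changes of at least 16-fold 303 higher and 217 lower. The median log2 fold change over all genes was 0. These shares are the background for each group of genes below. Cdh1, Krt7, Krt8, Krt18, Zeb1, Kcnj11, Abcc8, Notch1, B2m, Inhba, Met and Kit were named after their values were seen, and so were Mnx1, Myt1, Foxa1, Mlxipl, Glis3, Tjp1, Spint1, Cd68 and Laptm5, which are given without fold changes. The other genes with fold changes were named by rule.

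Islet hormones and granule peptides, the secreted products of endocrine cells, were mostly higher in OE. Of 21 listed genes, 11 were higher and 4 lower (71.4% called), with a median log2 fold change of 1.38, or 1.06 with genes at the floor set to their bound. Ins1 (chr19:52264297-52265015), 1 of the 2 mouse insulin genes, had 811, 623, 528 and 735 CPM in Scr and 6737, 7547, 7700 and 8709 CPM in OE. The lowest OE library was thus far above the highest Scr library, and the mean rose 11.4-fold (log2 fold change 3.51, SE 0.15, adjusted p = 1.762e-15). Ins2, the other insulin gene, rose less, from 10933 ± 2044 CPM to 18879 ± 938 CPM (SD, n = 4 each, 1.73-fold, adjusted p = 1.7648e-06 by edgeR). Ins1 and Ins2 are near copies, so reads may have been split between them. Iapp, which encodes the amyloid peptide co-secreted with insulin, had 4422, 3469, 3747 and 3694 CPM in Scr and 12129, 11489, 10779 and 11328 CPM in OE. No Iapp value overlapped between the lines, and the fold was 2.98.

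Hormones of other islet cells moved in both directions. Gcg, the precursor of the alpha cell hormone glucagon, fell from 246, 369, 279 and 259 CPM in Scr to 44.2, 42.2, 38.2 and 41.1 CPM in OE. All 4 OE libraries lay below the Scr range, 6.96-fold lower on average (adjusted p = 5.8895e-07 by edgeR). Npy, a neuropeptide that restrains insulin release, was 2.38-fold lower, at 1911 ± 104 CPM in Scr and 802 ± 69.1 CPM in OE (SD, n = 4). Ppy, which encodes pancreatic polypeptide, had no read in any Scr library and 10.9, 8.52, 6.04 and 10.1 CPM in OE, at least 100.5-fold higher when the Scr mean is set to the floor of 3 reads per library. Markers of the other islet endocrine types together summed to 1528 to 1981 CPM in Scr and 613 to 1167 CPM in OE, with 3 of 7 listed markers higher and 3 lower.

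Transcription factors that set beta cell identity did not move as a block. Of 24 listed, 5 were higher and 5 lower (41.7% called), and the median log2 fold change was -0.06. Nkx6-1, a factor that keeps beta cells from alpha and delta fates, had 293, 240, 236 and 246 CPM in Scr and 168, 168, 168 and 164 CPM in OE, a 1.52-fold fall. Scr replicate 1 was the highest of these values, and without it the log2 change of -0.53 was no longer past the fold threshold. Isl1, a pan-endocrine factor, was 1.68-fold lower at 266 ± 11.5 CPM in Scr and 159 ± 15.3 CPM in OE (SD, n = 4). Tshz1, a zinc finger factor, was 1.73-fold lower, and Mnx1 and Myt1 were the other falls. Leaving out OE replicate 1 and Scr replicate 1 together reduced the 5 lower factors to 2.

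The central activators of insulin transcription stayed under the fold threshold. Pdx1 had 824 ± 36.0 CPM in Scr and 627 ± 34.5 CPM in OE (SD, n = 4), a log2 difference of -0.39 with adjusted p = 7.6486e-06 by edgeR. Mafa had 1242, 994, 985 and 981 CPM in Scr and 643, 717, 749 and 754 CPM in OE, a log2 difference of -0.55. Neither gene had overlapping libraries between lines. Neurod1, another activator, gave 202 ± 7.27 CPM in Scr and 206 ± 6.58 CPM in OE (SD, n = 4), with adjusted p = 0.74182 in the edgeR fit. Foxa1, Rfx6, Mlxipl and Glis3 were among the 5 higher factors. Rfx6, needed for the formation of endocrine cells, rose 4.60-fold from 9.89 ± 0.346 CPM to 45.5 ± 2.38 CPM (SD, n = 4).

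Genes of progenitors, of other islet fates and of metabolism that beta cells normally keep off were the next group, with 7 of 21 higher and 6 lower (61.9% called, median log2 fold change 0.15, or 0.10 with genes at the floor set to their bound). Ldha, lactate dehydrogenase A, is held low in healthy beta cells. Its level was 952, 277, 458 and 834 CPM in Scr and 15.4, 108, 97.9 and 130 CPM in OE. The lines did not overlap, yet each was widely spread within itself, and the fall was 7.17-fold (adjusted p = 6.2697e-05 by edgeR). Slc16a1, the lactate and pyruvate carrier that beta cells also keep low, was 5.91-fold lower at 26.9 ± 4.90 CPM in Scr and 4.56 ± 1.63 CPM in OE (SD, n = 4). Irx2, an alpha cell homeobox factor, had no read in any Scr library and 1.81, 3.24, 2.79 and 3.60 CPM in OE, at least 32.3-fold higher. Pax4, a factor of beta cell specification, rose 6.63-fold.

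Genes of glucose sensing were called in both directions, 5 of 18 higher and 3 lower (44.4% called, median log2 fold change -0.21, or 0 with genes at the floor set to their bound). Slc2a2, the glucose transporter of mouse beta cells, had 37.7, 20.8, 22.1 and 15.5 CPM in Scr and 68.8, 99.2, 110 and 93.1 CPM in OE, without overlap and 3.85-fold higher. Kcnj11, the pore of the KATP channel, rose 1.57-fold from 101 ± 8.10 CPM to 158 ± 5.78 CPM (SD, n = 4). Abcc8, its sulfonylurea receptor subunit, was at 639 ± 90.1 CPM in Scr and 575 ± 31.4 CPM in OE and was not called (adjusted p = 0.12777). G6pc2, a glucose-6-phosphatase of islets, fell 1.68-fold, with 3590, 3004, 3062 and 3082 CPM in Scr and 1957, 1931, 1884 and 1807 CPM in OE. Slc2a3, a high-affinity glucose transporter, fell 12.01-fold from 9.91 ± 3.12 CPM to 0.825 ± 0.287 CPM. Ucn3, a peptide of mature beta cells that stimulates somatostatin release, had 0.162, 0.345, 0.188 and 0.0929 CPM in Scr and 20.2, 18.6, 21.2 and 18.3 CPM in OE, a 97.0-fold rise. Untreated ZIP averaged 140 CPM of Slc2a2 and 151 CPM of Kcnj11, unlike Scr. It averaged 4641 CPM of G6pc2, 10.6 CPM of Slc2a3 and 0.187 CPM of Ucn3, unlike OE.

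**Figure D1:**
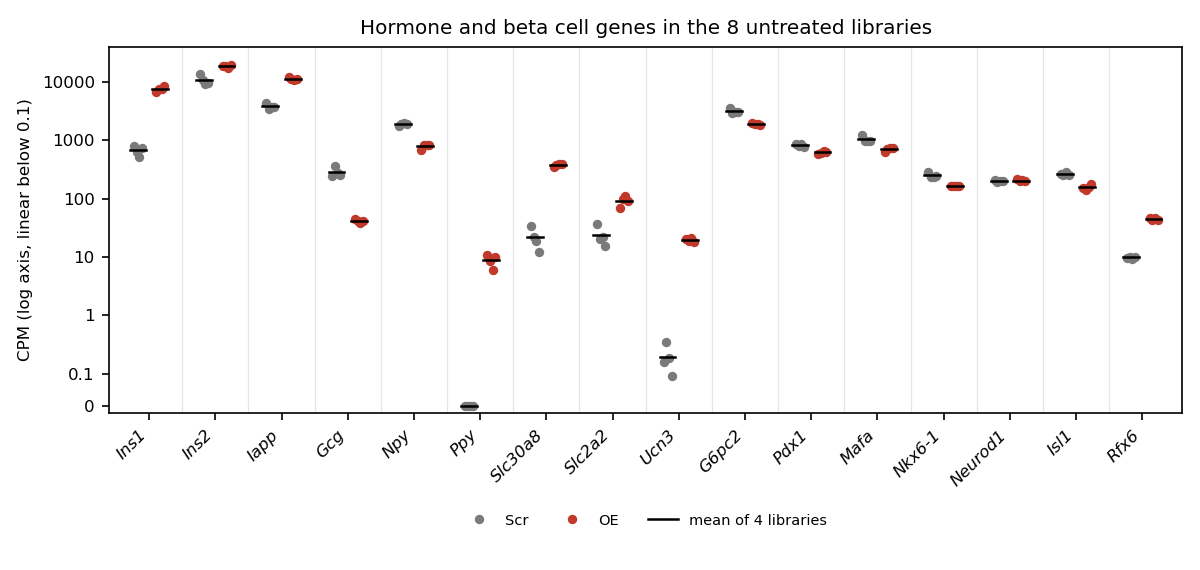
Level in CPM (log axis) of islet hormone, transcription factor and glucose sensing genes in the 4 Scr and the 4 OE libraries, with each point a library and each bar the group mean. The axis is linear below 0.1 CPM. Ins1, Slc30a8 and Ucn3 show OE points above the Scr points, Gcg and Npy show them below, and the Neurod1 points of both lines lie together, at 202 and 206 CPM on average.

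Granule genes changed in both directions. Slc30a8, the transporter that loads zinc into granules for insulin crystallisation, had 34.3, 22.3, 18.6 and 12.4 CPM in Scr and 352, 378, 397 and 402 CPM in OE. It rose 17.4-fold (log2 fold change 4.12, SE 0.26), with no overlap of the lines. Of 25 zinc transporter and metallothionein genes, 6 were higher and 5 lower (44.0% called), the falls including Slc39a8, an importer, at 5.22-fold and Mt2, a zinc-binding metallothionein, at 4.48-fold. Mt1 and Mt2 are near copies, so reads may have been split between them. Prohormone processing and granule cargo genes, a list that also holds Slc30a8, numbered 3 higher and 4 lower of 20 (35.0% called). Pam, which amidates peptide hormones, rose 1.66-fold, Chgb, a granule matrix protein, fell 1.57-fold, and Ero1b, the oxidase that helps proinsulin fold, fell 1.62-fold. The Chgb call was lost without Scr replicate 2, with a log2 change of -0.54.

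Exocytosis genes fell more often than they rose, 14 against 6 of 54 (37.0% called, median log2 fold change -0.25, or -0.20 with the bounds). Stxbp5l, a tomosyn that binds the SNARE proteins, fell 7.70-fold from 82.8, 90.7, 84.4 and 96.3 CPM in Scr to 7.53, 10.7, 12.8 and 15.0 CPM in OE. Cadps2, a priming factor of dense core granules, fell 5.18-fold at low levels of 3.04 ± 0.507 CPM and 0.588 ± 0.330 CPM (SD, n = 4). Myrip, which links granules to myosin and actin through Rab27a, had 1.29, 0.661, 1.03 and 1.27 CPM in Scr and 0.0907, 0.136, 0 and 0 CPM in OE. The OE levels were near the detection floor, and the log2 fold change was -4.10, or -4.97 without OE replicate 2. Rises included Sytl1, a Rab27 effector, and Vamp1, a vesicle SNARE at 1.86-fold.

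Ion channels had 16 of 78 genes higher and 22 lower (48.7% called). Kcnj12, an inward rectifier, fell 39.2-fold from 29.5 ± 3.95 CPM to 0.763 ± 0.400 CPM, and Kcnk3, a background potassium channel, fell 30.7-fold from 21.8 ± 2.45 CPM (SD, n = 4). In the other direction Kcnk1, another background potassium channel, rose 14.4-fold to 82.3 ± 6.09 CPM. Scn3a, a sodium channel of beta cells, had 0.405, 0.834, 0.313 and 0.248 CPM in Scr and 15.4, 9.82, 13.4 and 10.8 CPM in OE. The Scn3a values of the lines did not overlap. G protein coupled receptors of islet secretion were higher in 20 and lower in 12 of 56 (57.1% called). Gpr119, a receptor for lipid amides that raises cAMP, had no read in Scr and 6.56, 4.49, 5.30 and 5.08 CPM in OE, at least 60.5-fold higher. Drd2, the dopamine receptor that inhibits secretion, had 21.4, 20.5, 21.9 and 22.4 CPM in Scr and 0.574, 0.735, 0.524 and 1.70 CPM in OE, a 24.9-fold fall.

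Genes of epithelial adhesion, junctions and polarity were the group with the largest median change of the 33 lists. Of 60 listed genes, 38 were higher and 3 lower (68.3% called), with a median log2 fold change of 1.70, or 1.21 with genes at the floor set to their bound. Cdh1 (chr8:106603350-106670247), E-cadherin, which joins epithelial cells, had 6.72, 5.52, 6.09 and 5.48 CPM in Scr and 195, 180, 203 and 167 CPM in OE. It rose 31.2-fold (log2 fold change 4.96, SE 0.17, adjusted p = 2.2469e-17 by edgeR). Epcam (chr17:87635979-87651127), an epithelial adhesion molecule, was at 0.0809, 0.0862, 0.156 and 0.186 CPM in Scr and 119, 131, 121 and 128 CPM in OE. The Scr libraries were near the floor and each OE library was above 100 CPM.

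Other genes of the list were silent or nearly so in Scr. Esrp1, a splicing factor of epithelial isoforms, had at most 0.031 CPM in Scr and 108, 103, 97.5 and 83.8 CPM in OE. Ap1m2, a sorting adaptor of epithelial cells, had no read in Scr and 28.0, 24.6, 24.2 and 21.9 CPM in OE, at least 279-fold higher. Krt19, a keratin of ductal and simple epithelia, had no read in Scr and 12.4, 17.4, 16.2 and 17.4 CPM in OE, at least 179-fold higher. Other keratins rose with it. Krt7 had 7.47, 3.65, 3.38 and 3.004 CPM in Scr and 481, 387, 387 and 382 CPM in OE, Krt18 rose 162-fold, and Krt8, their partner, rose 2.48-fold from 57.0 ± 2.78 CPM to 141 ± 10.7 CPM (SD, n = 4). The 3 falls were Tjp1, a tight junction scaffold, Prom1 at 2.82-fold, and Ovol2, a repressor of mesenchymal genes, at 3.11-fold.

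Markers of pancreatic duct moved in the same direction as this list, and their part in the result was not tested. Of 8 duct markers, 5 were higher and 1 lower, and their sum was 6.47 to 11.4 CPM in Scr and 483 to 597 CPM in OE. Sox9 and Cftr, defining genes of duct cells, had 3 reads or fewer in each of the 8 libraries. Krt19, Krt7 and Muc1 belong to both lists. Acinar markers summed to 0.681 to 0.875 CPM in Scr and 5.62 to 7.21 CPM in OE, with 3 of 10 markers listed, 1 of them higher and 1 lower.

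**Figure D2:**
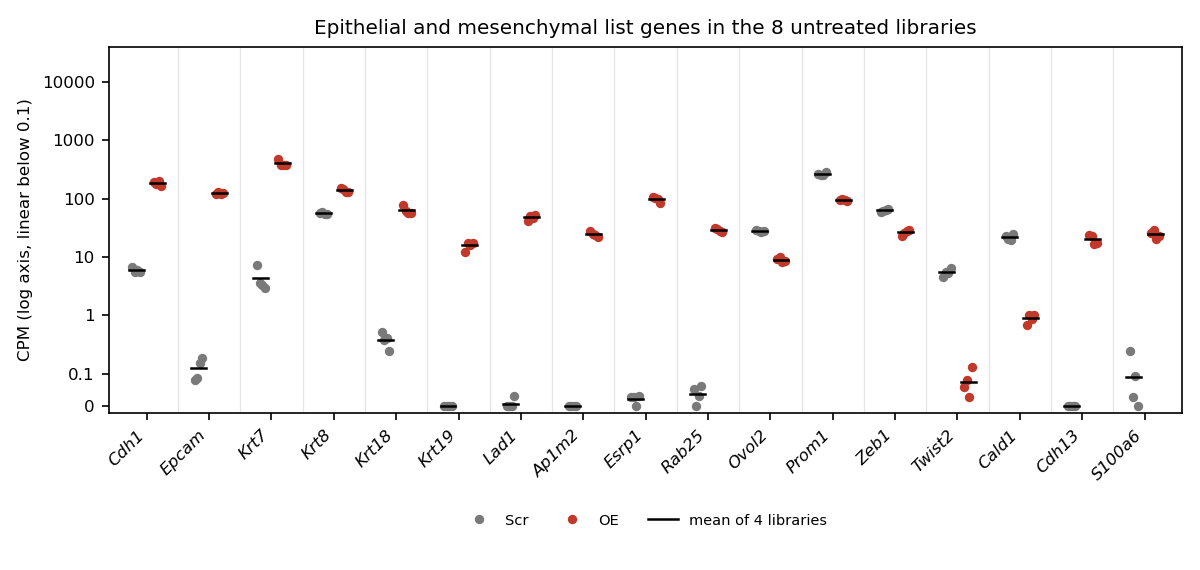
Level in CPM (log axis, linear below 0.1 CPM) of epithelial and mesenchymal genes in the 4 Scr and the 4 OE libraries, with each point a library and each bar the group mean. OE points stand above Scr points for the adhesion molecules and keratins, while Ovol2, Prom1, Zeb1, Twist2 and Cald1 stand lower in OE.

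Promoters are shown for Ap1m2, Rab25 and Epcam because they are epithelial genes with near-silent Scr libraries that hold the E-box CACCTG, the letters that ZEB and SNAI repressors of epithelial genes are known to bind. Each covers 250 bases before to 50 after the gene start, from RefSeq (GRCm38.p6), and capitals mark CACCTG or its reverse complement CAGGTG. Ap1m2 lies at chr9:21312284-21312583 on the minus strand, Rab25 at chr3:88548230-88548529 on the minus strand and Epcam at chr17:87635729-87636028 on the plus strand.
Ap1m2: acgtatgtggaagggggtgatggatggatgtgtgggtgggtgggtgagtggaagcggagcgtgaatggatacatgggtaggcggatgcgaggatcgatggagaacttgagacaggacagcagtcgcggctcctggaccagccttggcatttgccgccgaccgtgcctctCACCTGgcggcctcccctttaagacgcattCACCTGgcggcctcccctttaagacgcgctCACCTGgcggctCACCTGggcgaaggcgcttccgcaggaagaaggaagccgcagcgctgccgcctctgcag
Rab25: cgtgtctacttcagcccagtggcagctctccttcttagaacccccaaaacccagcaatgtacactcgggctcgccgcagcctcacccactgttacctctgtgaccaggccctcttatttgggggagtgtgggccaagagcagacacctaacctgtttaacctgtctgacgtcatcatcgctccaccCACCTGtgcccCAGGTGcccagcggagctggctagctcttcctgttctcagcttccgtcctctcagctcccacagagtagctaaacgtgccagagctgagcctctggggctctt
Epcam: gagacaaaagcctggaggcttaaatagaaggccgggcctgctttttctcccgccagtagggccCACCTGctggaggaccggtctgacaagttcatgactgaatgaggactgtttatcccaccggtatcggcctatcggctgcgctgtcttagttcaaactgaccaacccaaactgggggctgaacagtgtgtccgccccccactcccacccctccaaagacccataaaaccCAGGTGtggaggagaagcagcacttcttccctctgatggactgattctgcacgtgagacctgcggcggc

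They were chosen for holding it. Lad1, which had at most 0.031 CPM in Scr and a mean of 48.0 CPM in OE, and Spint1, at most 0.155 CPM and 27.1 CPM, have neither CACCTG nor CAGGTG in the window. Of the 38 higher epithelial genes, 22 had a promoter in the table, with 30 promoters in all. The E-box was present in 22 of these 30 promoters (73.3%). It was present in 20.2% of all 32851 promoters of the same length and in 19.5% of the 17365 promoters of tested genes. Among the epithelial genes that were not called, 5 of 12 promoters held it (41.7%). The motif AACCGGTT, the letters bound by grainyhead factors, was in 0 of the 30 promoters and in 0.146% of all promoters. A motif this rare is seldom met in 30 promoters, so the 0 shows nothing about grainyhead factors. A match is a description of letters in the window and does not show binding.

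Genes of the mesenchymal and neural cadherin program were lower more often than higher, 15 against 8 of 35 (65.7% called, median log2 fold change -0.67). Zeb1, a repressor of Cdh1, had 59.8, 61.9, 64.8 and 67.5 CPM in Scr and 23.4, 25.5, 27.6 and 29.7 CPM in OE. All OE values lay below all Scr values, a 2.39-fold fall (adjusted p = 2.3321e-13 by edgeR). Twist2, a mesenchymal factor, fell 70.6-fold from 5.46 ± 0.773 CPM to 0.0752 ± 0.0434 CPM, and Cald1, an actin-binding protein of contractile cells, fell 24.3-fold from 21.95 ± 2.31 CPM to 0.900 ± 0.158 CPM (SD, n = 4). The OE mean of Twist2 was under the detection floor of 0.0883 CPM, so the size of its fold is uncertain. The list also held rises. Cdh13, a cadherin without a cytoplasmic tail, had no read in Scr and 24.2, 23.2, 16.7 and 17.5 CPM in OE, at least 231-fold higher. S100a6, a calcium-binding protein, rose from 0.0913 ± 0.108 CPM to 24.5 ± 3.66 CPM. Its log2 fold change was 7.95, or 9.11 without Scr replicate 1. Of 8 fibroblast markers 2 were lower and 0 higher, with sums as given above, and their part in the result was not tested.

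Axon guidance genes fell in 22 and rose in 11 of 67 (49.3% called, median log2 fold change -0.25, or -0.17 with the bounds). Slit1 (chr19:41597824-41747275), a secreted repellent that signals through Robo receptors, had 483, 446, 472 and 445 CPM in Scr and 0.876, 2.18, 1.49 and 2.13 CPM in OE. The fall was 276-fold (log2 fold change -8.11, SE 0.26), the largest among annotated genes with at least 10 CPM in Scr. Sema6d, a membrane semaphorin, fell 12.8-fold, while Ntn1, a netrin ligand, rose 4.66-fold and Plxnb1, a semaphorin receptor, rose 3.53-fold. Collagen, laminin and integrin genes were lower in 17 and higher in 7 of 82 (29.3% called), of which 14 had 3 reads or fewer in each library. Lama1, a basement membrane laminin, had 30.7, 38.4, 60.4 and 39.4 CPM in Scr and 0.423, 0.762, 0.469 and 0.426 CPM in OE. Col16a1, a fibril-associated collagen, fell 15.1-fold, and Itgal, an integrin of leukocytes, rose 70.9-fold from 0.241 ± 0.0802 CPM to 17.4 ± 2.17 CPM (SD, n = 4). Leukocyte markers summed to 1.41 to 3.21 CPM in Scr and 1.99 to 4.63 CPM in OE, and 1 of the 6 listed was higher and 1 lower. Cd68 had a mean of 1.51 CPM in Scr and 2.76 CPM in OE, and Laptm5 0.255 CPM and 0.0315 CPM. Ptprc and Itgam, defining genes of leukocytes, had 3 reads or fewer in each of the 8 libraries. Spp1, osteopontin, had 1.40 CPM in Scr replicate 1, at most 0.144 CPM in the other Scr libraries and 75.6 to 116 CPM in OE.

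The 12 largest rises among genes with at least 10 CPM were Ap1m2, Cdh13, Lad1, Krt19, Esrp1, Fst, Epcam, Rab25, Tlr4, Ildr1, Slc17a6 and Cckbr. Their Scr means were 0 to 0.133 CPM, their OE means 13.2 to 125 CPM, and their means in untreated ZIP 0 to 1.58 CPM. Lad1, an anchoring filament protein, and Rab25, an epithelial recycling GTPase, belong to the epithelial list too. Ildr1, a tricellular junction protein, rose from 0.0589 ± 0.0543 CPM to 43.7 ± 1.35 CPM (SD, n = 4). Cckbr, the gastrin receptor, had 74.1, 47.9, 50.1 and 47.2 CPM in OE and at most 0.156 CPM in Scr. The 12 largest falls were Slit1, Lrch2, Ablim1, Amotl1, Pcdha11, Lama1, Evc2, Crtac1, Nrn1, Kbtbd11, Evc and Lrp3, with Scr means of 12.9 to 462 CPM and OE means of 0.0863 to 2.51 CPM. Amotl1, an angiomotin of tight junctions, had 121, 111, 123 and 128 CPM in Scr and 0.574, 1.14, 1.19 and 1.74 CPM in OE. Evc and Evc2, which form a complex at the base of cilia in Hedgehog signalling, fell 40.5-fold and 68.9-fold. Pcdha11 shares exons with the other genes of its cluster, so its counts are uncertain. In untreated ZIP the means of these 12 genes ranged from 0.630 to 106 CPM.

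**Figure D3:**
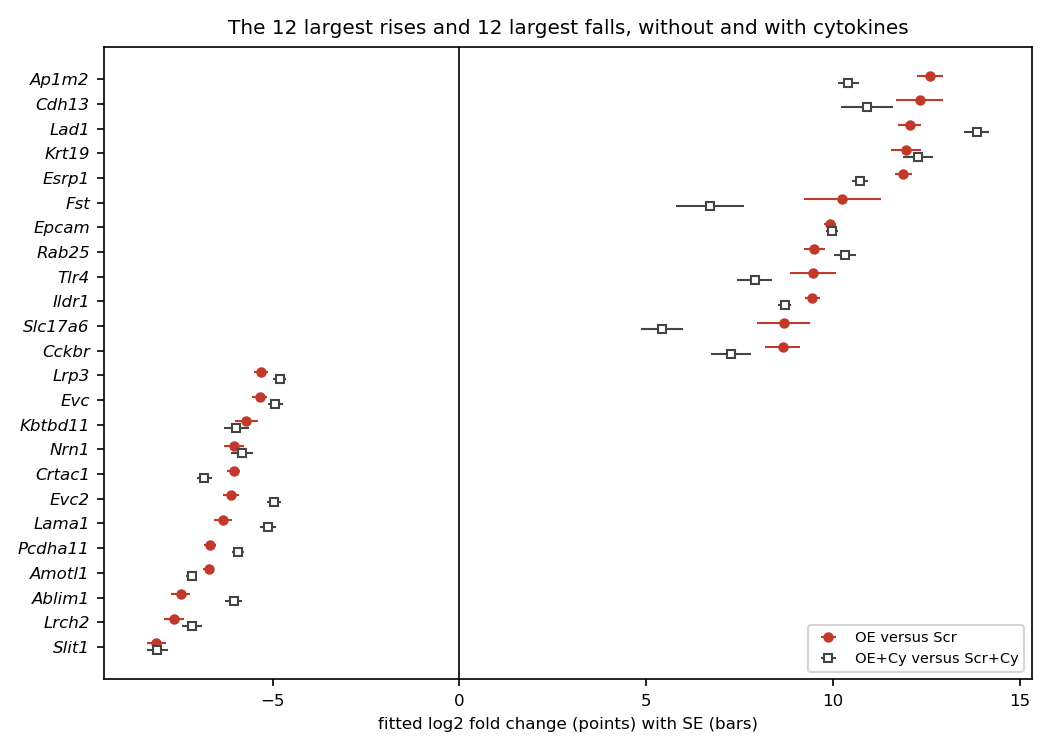
Fitted log2 fold change, OE minus Scr, of the 12 largest rises and the 12 largest falls, with bars of 1 SE, without cytokines (filled points) and for OE+Cy against Scr+Cy (open squares). Untreated rises reach 12.59 and falls -8.11. For 9 of the 12 rises Scr had 3 reads or fewer in each library, so those fitted values depend on the prior count and are no bound.

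Growth factor ligands and receptors moved in both directions, with 7 of 44 genes of the insulin, IGF and EGF families higher and 12 lower (43.2% called, median log2 fold change -0.44, or -0.35 with the bounds). Igf1r (chr7:67952257-68233668), the IGF-1 receptor, had 9.31, 9.26, 6.09 and 5.45 CPM in Scr and 455, 447, 446 and 372 CPM in OE, a 56.8-fold rise (log2 fold change 5.83, SE 0.24). Its ligand Igf2 had 8904, 8192, 9074 and 9493 CPM in Scr and 4185, 3755, 4031 and 4196 CPM in OE, a 2.21-fold fall. The binding protein Igfbp4 rose 20.7-fold to 93.3 ± 11.3 CPM (SD, n = 4), and Pappa2, a protease that cleaves IGF-binding proteins, rose 20.1-fold with 79.0, 70.6, 46.6 and 45.9 CPM in Scr and 1554, 1201, 1182 and 936 CPM in OE. Among the 12 falls, Fgfr1, an FGF receptor, had 9.19 ± 0.538 CPM in Scr (SD, n = 4) and 0.272, 0.0272, 0.0276 and 0.0655 CPM in OE. OE replicate 1 was the only OE library above 3 reads, and the log2 fold change was -6.53 with it and -7.75 without it. Egfr fell 3.37-fold, Kit 17.4-fold and Met, the HGF receptor, 16.1-fold.

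Activin, BMP and TGF-beta signalling had 10 of 46 genes higher and 6 lower (34.8% called). The secreted members and inhibitors supplied the largest rises. Inhba, the activin A subunit, had 3.97, 4.17, 5.19 and 5.08 CPM in Scr and 91.3, 65.5, 61.6 and 70.1 CPM in OE, 15.7-fold higher. Fst, follistatin, which binds activin, had 1 Scr library with any read, at 0.0287 CPM, and 13.7, 18.3, 10.7 and 12.2 CPM in OE. Grem1, a BMP antagonist, rose 36.9-fold to 24.2 ± 2.74 CPM. On the receiving side, Tgfbr3, a coreceptor, fell 36.8-fold and Smad3, a signal transducer, fell 2.98-fold. Acvr2b, an activin receptor, gave 14.025 ± 1.76 CPM in Scr and 15.2 ± 0.605 CPM in OE and was not called (adjusted p = 0.43252, edgeR).

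**Figure D4:**
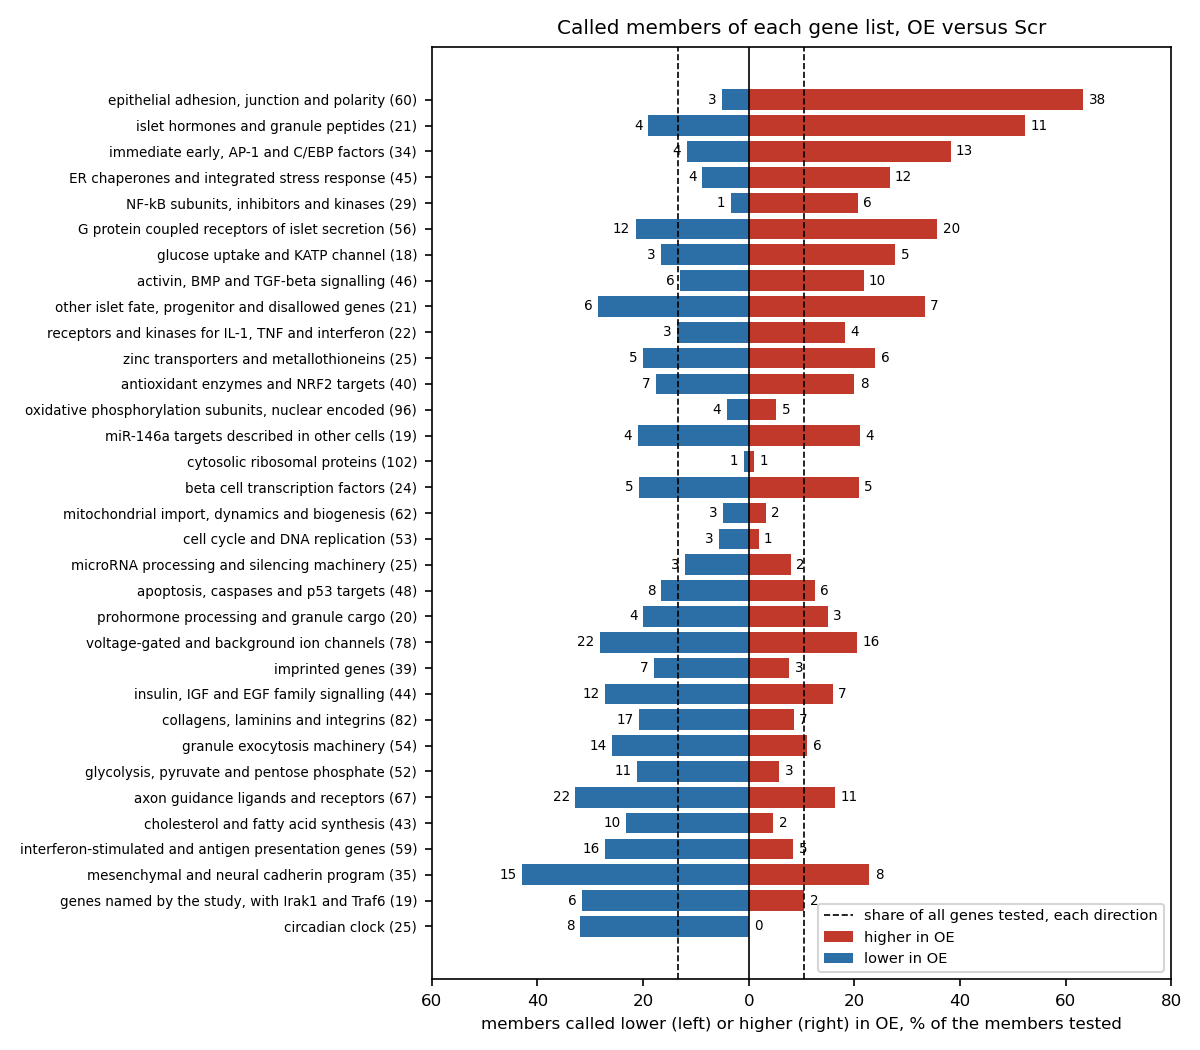
Share of genes called higher (right) and lower (left) in OE, in percent of the tested genes of each list, for the 33 gene lists, with counts beside the bars. The dashed lines stand at the shares over all genes, 10.4% higher and 13.4% lower. The epithelial and hormone lists reach furthest on the higher side, and the ribosomal list has the smallest share of calls.

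Known targets of miR-146a-5p from other cells did not share a direction. Of 19 listed, 4 were higher and 4 lower (42.1% called), with a median log2 fold change of -0.02. Irak1, whose 2 sites are shown above, had 173, 183, 158 and 166 CPM in Scr and 248, 252, 243 and 241 CPM in OE, a log2 difference of +0.53 under the fold threshold with adjusted p = 1.5038e-07. Traf6, with its 4 sites, had 73.9, 70.8, 75.5 and 77.8 CPM in Scr and 61.3, 58.7, 61.7 and 57.9 CPM in OE, a log2 difference of -0.31 with adjusted p = 3.3472e-05 by edgeR. Neither gene overlapped between the lines and neither was called. Notch1, a receptor with 1 site, fell 3.08-fold with 78.9, 84.1, 92.8 and 74.0 CPM in Scr and 30.6, 24.4, 28.6 and 23.5 CPM in OE. Notch2 fell 3.62-fold at low levels. Tlr4, the lipopolysaccharide receptor, rose from at most 0.0313 CPM in Scr to 12.8, 13.6, 13.7 and 12.6 CPM in OE, and Relb, an NF-kB subunit, rose 2.08-fold. Relb averaged 2.18 CPM in Scr, 4.57 CPM in OE and 4.58 CPM in untreated ZIP, while Tlr4 averaged 0.134 CPM in ZIP.

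Seed sites were also counted across the transcriptome, in the longest 3' untranslated region of 15437 genes. Among genes with at least 1 CPM in either line, 10354 had no AGTTCTC and 1542 had at least 1. The share lower in OE was 14.6% without a site, 15.9% with at least 1 site and 17.4% with an 8-base site (553 genes). The share higher was 10.0%, 9.53% and 8.86% in the same order. The 201 genes with 2 or more sites had 12.9% lower and 12.4% higher, with a median log2 fold change of 0.0116. Median log2 fold changes were -0.00131 without a site, -0.0234 with a site and -0.0298 with an 8-base site, so these medians differed by under 0.03. The median length of the untranslated region also differed, at 1085 bases without a site and 2776 with one, and its part in the shares was not tested.

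**Figure D5:**
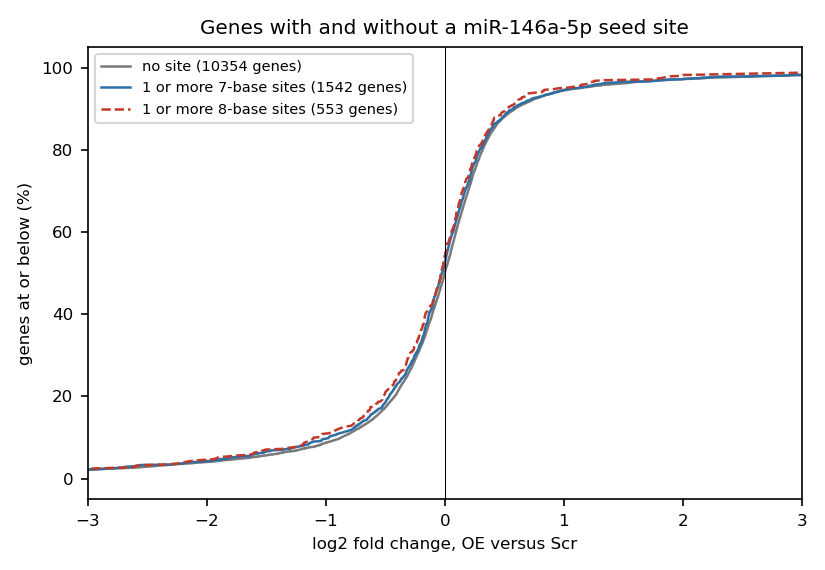
Cumulative share of genes (vertical axis) by log2 fold change, OE minus Scr (horizontal axis), for genes without a miR-146 seed site, with at least 1 site and with at least 1 8-base site. The 3 curves lie close together, with medians of -0.00131, -0.0234 and -0.0298.

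A further list joined genes that the study named, its reference genes and mitochondrial markers, and Irak1 and Traf6. Of its 19 tested genes 2 were higher and 6 lower (42.1% called), and because the study chose several of them on these samples the count is no independent evidence. Brsk2, a kinase related to AMPK, rose 4.41-fold and Eya1, a phosphatase and coactivator, rose 2.81-fold. The falls were Myrip, Nrg1, Mapt, Sort1, Glrx and Gpx1. Sort1, a sorting receptor of granules and lysosomes with 1 site, had 345, 360, 359 and 351 CPM in Scr and 187, 185, 197 and 172 CPM in OE, 1.91-fold lower. Mapt, which encodes tau and has 1 site, fell 1.93-fold from 238 ± 27.5 CPM to 123 ± 26.5 CPM. Of the 9 members of this list with a seed site, Irak1 and Traf6 among them, 4 were lower and 0 higher, and of the 11 known targets from other cells with a site 1 was lower and 1 higher (median log2 fold change -0.00466). Glrx, a glutaredoxin, and Gpx1, a peroxidase, fell 1.77-fold and 1.57-fold. Tomm20 and Timm23, mitochondrial import proteins, were not called, at 101 ± 5.60 against 98.0 ± 2.93 CPM and at 45.8 ± 0.838 against 52.2 ± 2.53 CPM (SD, n = 4).

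NF-kB genes in untreated cells were higher in 6 and lower in 1 of 29 (24.1% called), near the 23.8% of all genes. Nfkbiz, an inducible cofactor of NF-kB, rose 2.66-fold from 3.81 ± 0.405 CPM to 10.1 ± 1.03 CPM, and Traf5, an adaptor, fell 1.75-fold. Traf5 averaged 9.38 CPM in Scr, 5.35 CPM in OE and 5.22 CPM in untreated ZIP, while Nfkbiz averaged 4.86 CPM in ZIP. Interferon-stimulated and antigen presentation genes fell in 16 and rose in 5 of 59 (35.6% called, median log2 fold change -0.42). Gbp7, a guanylate-binding GTPase, had 13.5, 20.1, 28.3 and 17.1 CPM in Scr and 2.15, 2.53, 3.37 and 4.98 CPM in OE, a 6.10-fold fall. B2m, the light chain of MHC class I, had 18.9, 28.3, 47.3 and 26.4 CPM in Scr and 10.8, 13.5, 12.6 and 13.9 CPM in OE, 2.38-fold lower (adjusted p = 0.0018405 by edgeR). Cd274, the checkpoint ligand PD-L1, went the other way and rose 2.32-fold. Receptors and kinases for IL-1, TNF and interferon counted 4 higher and 3 lower of 22 (31.8% called). Il1r2, a decoy receptor for IL-1, rose 3.33-fold and Ifngr2, a subunit of the IFNg receptor, fell 1.55-fold. Without Scr replicate 3 the Ifngr2 call was lost, at a log2 change of -0.57.

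Stress genes were called in both directions. Genes of endoplasmic reticulum chaperones and the integrated stress response were higher in 12 and lower in 4 of 45 (35.6% called, median log2 fold change 0.28). Hspa5, the chaperone BiP, had 1596, 1902, 1723 and 1919 CPM in Scr and 2467, 2828, 2906 and 3008 CPM in OE, 1.57-fold higher without overlap. Hsp90b1 rose 1.59-fold and Creld2, an induced disulfide isomerase, 2.52-fold. Atf3, a transcription factor of the stress response, rose 2.24-fold from 2.05 ± 0.411 CPM to 4.59 ± 1.203 CPM (SD, n = 4). Atf5, another such factor, fell 2.02-fold and Cebpb 1.86-fold. Untreated ZIP averaged 4.77 CPM of Atf3, near OE. It averaged 128 CPM of Atf5, against 171 CPM in Scr and 84.4 CPM in OE. Immediate early, AP-1 and C/EBP factors, a list that also holds Cebpb, were higher in 13 and lower in 4 of 34 (50.0% called). Egr1 had 11.98, 3.71, 5.72 and 8.92 CPM in Scr and 50.8, 49.2, 60.4 and 133 CPM in OE, with OE replicate 4 well above the rest.

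Apoptosis genes had 6 of 48 higher and 8 lower (29.2% called). Bmf, a BH3-only sensor, rose 3.45-fold and Tnfrsf10b, a TRAIL receptor, fell 4.72-fold. Antioxidant genes went both ways, 8 higher and 7 lower of 40 (37.5% called). Cat, catalase, had 7.28, 4.80, 8.03 and 6.35 CPM in Scr and 0.121, 0.0816, 0.248 and 0.458 CPM in OE, a 29.4-fold fall, and Gpx2, a peroxidase of epithelia, rose 42.9-fold.

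Nuclear-encoded mitochondrial genes were seldom called at the fold threshold of 1.5. The deposited counts hold 0 genes of the mitochondrial chromosome, so those genes were not compared. Import, dynamics and biogenesis genes were higher in 2 and lower in 3 of 62 (8.06% called), and nuclear-encoded oxidative phosphorylation subunits were higher in 5 and lower in 4 of 96 (9.38% called), both below the share of all genes. Mfn2, a mitochondrial fusion GTPase, fell 1.96-fold from 83.5 ± 5.61 CPM to 42.6 ± 3.69 CPM (SD, n = 4), and Ppargc1a, a coactivator of mitochondrial biogenesis, rose 1.93-fold at 4.23 ± 0.359 CPM and 8.16 ± 1.48 CPM. Cox6a2, a heart-type subunit of cytochrome oxidase, fell 5.72-fold and Cox5a 1.90-fold. Glycolysis, pyruvate and pentose phosphate genes were lower in 11 and higher in 3 of 52 (26.9% called). Fbp1, fructose bisphosphatase, fell 18.8-fold from 55.6 ± 9.85 CPM to 2.95 ± 0.486 CPM, and Gpd1, of the glycerol phosphate shuttle, rose 6.33-fold.

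Lipid, clock, imprinted and housekeeping groups completed the comparison. Cholesterol and fatty acid synthesis genes were lower in 10 and higher in 2 of 43 (27.9% called). Scd2, a fatty acid desaturase, had 5490, 5185, 5341 and 5469 CPM in Scr and 1347, 3112, 3000 and 2391 CPM in OE, 2.18-fold lower. Circadian clock genes were lower in 8 and higher in 0 of 25 (32.0% called), with Npas2, a partner of Bmal1, 40.1-fold lower and Rorb 11.8-fold lower. The OE mean of Npas2, 0.0869 CPM, was under the detection floor of 0.0883 CPM, so the size of its fold is uncertain. Imprinted genes were higher in 3 and lower in 7 of 39 (25.6% called), Dlk1 rising 56.2-fold from 0.133 ± 0.0710 CPM to 7.66 ± 2.16 CPM (SD, n = 4). Cell cycle and replication genes had 1 higher and 3 lower of 53 (7.55% called), the rise being Rrm2, a ribonucleotide reductase subunit, at 1.83-fold. MicroRNA processing and silencing genes had 2 higher and 3 lower of 25 (20% called), with Lin28b, a blocker of let-7 maturation, 21.125-fold lower. Cytosolic ribosomal proteins had 1 higher and 1 lower of 102 (1.96% called), and both are Rps6k kinases that the symbol rule of that list let in.

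By size of difference in CPM, abundant genes outside the islet lists also moved. Ubr4, a large ubiquitin ligase, had 4970, 5049, 4456 and 4124 CPM in Scr and 927, 820, 808 and 715 CPM in OE, a 5.69-fold fall. Atp2a2, the calcium pump of the endoplasmic reticulum, fell 1.80-fold from 4211 ± 296 CPM to 2339 ± 295 CPM, and Papss2, which makes the sulfate donor of the cell, fell 2.35-fold. Sphkap, an anchoring protein of protein kinase A, had 310, 281, 277 and 343 CPM in Scr and 1085, 1043, 1063 and 1045 CPM in OE, 3.498-fold higher. Eef1a1, a translation elongation factor, rose 1.53-fold without overlap of the lines.

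The same 2 lines were also compared under cytokines, in libraries that share none with the untreated comparison but come from the same clones. There 4725 genes were called (26.7%). Of the 4220 untreated calls 2839 were called in the same direction (67.3% of these and 60.1% of the treated calls), and 45 in the opposite direction. The 12 largest rises and the 12 largest falls were called in the same direction there too. The OE effect on insulin was smaller with cytokines. Ins1 had a log2 fold change of 3.51 untreated and 2.80 treated (interaction adjusted p = 0.010424 by edgeR), Ins2 had 0.79 and 0.22 (0.011277) and Iapp had 1.58 and 1.11 (0.0019842).

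The interaction of line and treatment passed an adjusted p of 0.05 for 3537 of the 17696 genes tested (20%) and for 1062 of the 4220 called genes (25.2%). It passed for 58 of the 175 named genes, most of which were picked among called genes, and in 10 of these the fitted OE effects had opposite signs in untreated and treated cells. Among these 10 the treated effect of Atf5, Cebpb, Psmb9, Creld2 and Hprt did not pass an adjusted p of 0.05. Hspa5 had a log2 fold change of 0.65 untreated and -0.42 treated, with an interaction adjusted p of 3.87e-05 by edgeR. Hsp90b1 had 0.67 and -0.34 (0.000805), and Creld2 had 1.33 and -0.32 (5.54e-05). Ifngr2 had -0.63 untreated and 1.06 treated, and Rrm2 had 0.87 and -0.38, with interaction adjusted p of 2.39e-07 and 4.3e-06. Psmb9, an immunoproteasome subunit, had -2.46 and 0.12 (3.21e-05), and Cebpd, an inflammatory C/EBP factor, had -2.49 and -0.10 (1.25e-05). Within the lists, interferon-stimulated genes were higher in 5 and lower in 16 untreated and higher in 26 and lower in 1 treated, and cell cycle genes were higher in 1 and lower in 3 untreated and higher in 1 and lower in 21 treated.

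Called genes were also placed on the genome in 245 windows of 10 Mb. In 9 windows the genes with at least 10 CPM moved together, defined as a median log2 fold change beyond 0.3 in which 75% or more shared the sign. These windows held 4.12% of all genes and 7.58% of called genes (320). Smaller shifts that run along a whole chromosome fall under this cut. Medians over the same kind of genes were -0.158 on chromosome 18, -0.156 on 2, -0.146 on 4 and -0.129 on 7. They were 0.16 on X, 0.142 on 14 and 0.12 on 12. The window at 50 to 60 Mb of chromosome 13 had a median log2 fold change of -0.828 over 55 genes, 94.5% of them lower. Windows at 30 to 60 Mb of chromosome 19 had medians of -0.436, -0.388 and -0.411. Slit1, Ablim1, Crtac1, Papss2, Scd1 and Scd2 lie there and were lower, and Ins1 lies there and rose. The Scr means of these falling genes were 462, 16.1, 165, 2232, 464 and 5371 CPM in that order. Untreated ZIP had 9.22, 0.639, 106, 1356, 408 and 5844 CPM, so Slit1, Ablim1, Crtac1 and Papss2 were lower than Scr in ZIP too. Windows were not computed for ZIP. On chromosome 8 the windows at 80 to 90 Mb and 90 to 100 Mb had medians of -0.584 over 68 genes, 95.6% of them lower, and -0.558 over 37 genes, 89.2% of them lower, and Mt2 lies in the latter. Mt2 averaged 374 CPM in Scr, 83.5 CPM in OE and 262 CPM in untreated ZIP. The window at 140 to 150 Mb of chromosome 4, where Mfn2 lies, had a median of -0.37 over 48 genes. The window at 50 to 60 Mb of the X chromosome had a median of +0.31 over 20 genes. At 70 to 80 Mb of chromosome 9 the median was +0.614, where Eef1a1 and Elovl5 lie. Copy number was not measured, and its part in these medians was not tested.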

How the data were processed

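RNA from 24 MIN6 libraries was sequenced as mRNA (KAPA mRNA HyperPrep). The authors aligned reads to mm10 and deposited estimated counts per gene, of which 30.3% are not whole numbers. The submitters' processing notes name STAR 2.7.8a and Partek 11.0.24.0204. Strand use in counting is not given in the sources used here. The deposited table lists 17696 genes with at least 10 reads in total, and overlapping genes and near copies share reads. The deposited normalised signal, which the authors made by dividing the estimated counts by 1 factor per library, entered no test.

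Estimated counts were rounded and fitted with edgeR 4.0.16 (R 4.3.3) by a quasi-likelihood test with TMM scaling and 6 group means over the 24 libraries. Benjamini-Hochberg adjustment ran over all genes, the interaction of line and treatment included. CPM was computed from the same counts, and SE is the absolute log2 fold change divided by the square root of F. The floor was 3 reads per library. Floors cover counting error only. Alternatives were DESeq2 1.42.0, its size factors, a low-count filter, only the 8 libraries, a replicate block, each library left out and a 2-fold threshold. Genes were named by rule: in each list the 2 largest rises and 2 largest falls among called genes without overlap and with at least 2 CPM, over all genes the 12 largest each way with at least 10 CPM, the 8 largest CPM differences each way, the genes the study named with Irak1 and Traf6, and the beta cell markers. A further 12 genes were named after their values were seen, as were some others given without fold changes, which did not enter the alternatives. The comparison and gene lists were chosen with earlier results of these data known. Some genes that the rule picks are not reported here.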

Additional observations from a re-analysis of the deposited data

Results flagged for a closer look

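A library stood apart from the 3 others of its group, by a gap relative to the range above Dixon's critical value for 4 samples, in 24 of 344 tests over the named genes. Chance gives about 1 in 20. The value after each gene is that ratio. In OE replicate 1 the highest value was that of Cckbr (0.892), Fgfr1 (0.844), Krt7 (0.951), Npas4 (0.864) and Tomm40l (0.978). In OE replicate 1 the lowest value was that of Elovl5 (0.853) and Npy (0.854). In OE replicate 2 the highest value was that of Cebpb (0.857), Hmox1 (0.915), Lama1 (0.864) and Mt2 (0.868). In OE replicate 4 the highest value was that of Egr1 (0.866). In OE replicate 4 the lowest value was that of Igf1r (0.884) and Nkx6-1 (0.898). In Scr replicate 1 the highest value was that of Cdkn1c (0.874), G6pc2 (0.868), Glrx (0.858), Krt7 (0.855), Mafa (0.952) and Spp1 (0.961). In Scr replicate 2 the highest value was that of Fst (1). In Scr replicate 3 the highest value was that of Isl1 (0.87). In Scr replicate 3 the lowest value was that of Esrp1 (0.871). In Scr replicate 4 the highest value was that of Lad1 (1). Scr replicate 1 had 1.40 CPM of Spp1 against at most 0.144 CPM in the other Scr libraries, and 1242 CPM of Mafa against at most 994 CPM. OE replicate 4 had 133 CPM of Egr1 against at most 60.4 CPM in the other OE libraries. For Fst, Lad1 and Esrp1 the Scr values rest on single reads.

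The OE effect differed between untreated and cytokine-treated cells by the interaction term of the edgeR fit, given here as the treated minus the untreated log2 fold change. Among the 24 largest changes, the fall was smaller with cytokines for Ablim1 (1.416), Lama1 (1.201) and Evc2 (1.147). The rise was smaller for Ins1 (-0.7112), Ins2 (-0.5644) and Iapp (-0.467), and the fall of Cebpd was smaller (2.389). The fitted value was positive untreated and negative treated for Creld2 (-1.651), Hsp90b1 (-1.01), Hspa5 (-1.067), Rrm2 (-1.256) and Hprt (-0.2692). It was negative untreated and positive treated for Atf5 (1.3), Cebpb (1.32), Ifngr2 (1.695), Psmb9 (2.583) and Abcc8 (0.3691). Abcc8 and Hprt were not called in untreated cells. In treated cells the effect did not pass an adjusted p of 0.05 by edgeR for Creld2 (log2 fold change -0.32), Hprt (-0.04), Atf5 (0.28), Cebpb (0.42) and Psmb9 (0.12). Adjusted p of the interaction by edgeR was 0.037281 for Ablim1, 0.028213 for Lama1 and 0.022058 for Evc2. Ablim1 averaged 0.0863 CPM in OE, under the floor of 0.0883 CPM, and 0.229 CPM in OE+Cy. Evc2 averaged 0.187 and 0.438 CPM, so the differences of Ablim1 and Evc2 rest on few reads. Lama1 averaged 0.520 and 1.14 CPM. These genes were picked for the size of their untreated fold.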

How the results depend on the processing

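Counts of called genes moved by less than 1.5 times under DESeq2 (4054), its size factors in edgeR (4215), the low-count filter (3816 of 14535 tested), the 8 libraries alone (4161) and with each library left out (3988 to 4150). A 2-fold threshold called 2803 genes, 1560 of them lower, since fewer genes pass it. With the replicate number as a block 4330 genes were called, 4168 of them shared with the unblocked fit. The labels do not say what a number marks, and over 12459 genes the same-numbered deviations correlated at 0.211, -0.147, 0.166 and 0.234, so the pairing was not used. The block changed the call of none of the 175 named genes, nor did DESeq2, its size factors, the filter or the 8 libraries alone. Leaving out a library changed the verdict of 10 of them. The called log2 fold change fell under its threshold for Chgb without Scr replicate 2 (-0.5392), Ifngr2 without Scr replicate 3 (-0.5658), Nkx6-1 without Scr replicate 1 (-0.5274), Pan2 without OE replicate 1 (0.5655) or Scr replicate 1 (0.5482), Rps6ka6 without OE replicate 4 (0.5725) or Scr replicate 1 (0.5293), and Tomm40l without OE replicate 1 (0.5515). Il6ra without OE replicate 2 (0.59) stayed past the fold threshold but lost its call, at an adjusted p of 0.0717 by edgeR. Genes near 0 that were not called turned sign. These were Actb without OE replicate 1 (-0.02925), Scr replicate 1 (-0.01144) or Scr replicate 4 (-0.01075), Rest without OE replicate 3 (-0.1229) and Tbp without Scr replicate 1 (-0.02011), whose highest values with a library left out were 0.07528, 0.2092 and 0.1104. Leaving out OE replicate 1 and Scr replicate 1 together, chosen after seeing the data because each held the most fibroblast marker RNA of its line, left 3853 calls (1691 higher, 2162 lower), with Actb at -0.0526. It ended the calls of Nkx6-1 (-0.5305), Pan2 (0.5267), Rps6ka6 (0.5296) and Tomm40l (0.5249) and reduced the lower beta cell factors from 5 to 2. The cause of these shifts was not tested. Genes at or under 3 reads in a line limit the folds that can be given.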
